A study of Homo sapiens with 24 samples.

Results

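RNA polymerases I, II and III are built from subunits encoded by genes named POLR1, POLR2 and POLR3 with a letter. All rows of the deposited tables whose gene symbol begins with POLR1, POLR2 or POLR3 followed by a letter were taken, which gave 31 of the 23595 genes. The study grew 2 human acute myeloid leukaemia cell lines, U937 and IMS-M2, without folic acid (-FA) or with it (+FA), and exposed them to OTX or to the solvent DMSO. There were 8 groups of 3 poly(A)-selected RNA-seq libraries, 24 in all: U937 -FA OTX, U937 -FA DMSO, U937 +FA OTX, U937 +FA DMSO, IMS-M2 -FA OTX, IMS-M2 -FA DMSO, IMS-M2 +FA OTX and IMS-M2 +FA DMSO. The labels give OTX only by that abbreviation, with no dose or duration. From general knowledge of the study it is read here as birabresib, which blocks BET bromodomain proteins. U937 and IMS-M2 are both established lines. Nothing says whether replicates came from separate cultures, so p-values measure only the spread between these libraries, which may be technical.

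Expression was given as FPKM, a fragment count divided by transcript length and by the library's mapped fragments. Depth is unknown, because no read counts were analysed. Libraries summed to between 522659 and 644841 FPKM and had 10418 to 10894 genes at 1 FPKM or more. A change is the difference of mean log2(FPKM + 1), OTX minus DMSO, with its standard error (SE), from limma, a linear model fitted across all expressed genes. A gene was called, and is said to have risen or fallen, at an adjusted p below 0.05 (Benjamini-Hochberg over all genes tested). In bulk RNA, a change in every cell and a change in the share of cells that express a gene cannot be told apart.

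Of 7 myeloid markers, PTPRC, CD33, SPI1, LYZ and CD68 averaged above 1 FPKM in all 8 groups, with LYZ, which encodes lysozyme, at 260 to 1445 FPKM in the U937 groups and 1.61 to 14.2 FPKM in the IMS-M2 groups. MPO, the myeloperoxidase gene, averaged 0.192 to 1.40 FPKM in the U937 groups and 0.00412 to 2.18 FPKM in the IMS-M2 groups, and CSF3R, the G-CSF receptor gene, 9.40 to 21.8 FPKM in the U937 groups and under 1 FPKM in each IMS-M2 group. Among markers of other cell types, EPCAM, KRT19 and MS4A1 were listed at 0 throughout. COL1A1, COL1A2 and CD3D averaged under 1 FPKM in each group, CD3E at most 3.27 FPKM and HBB at most 3.48 FPKM, and the endothelial marker PECAM1 averaged 0.992 to 9.70 FPKM. KRT18, an epithelial keratin, averaged 63.6 to 89.7 FPKM in the IMS-M2 groups and at most 0.0213 FPKM in the U937 groups. Some myeloid markers differed between OTX and DMSO libraries without overlap. SPI1, a myeloid transcription factor, averaged 11.4 FPKM in IMS-M2 +FA OTX libraries and 85.1 FPKM in IMS-M2 +FA DMSO libraries. PTPRC, the pan-leukocyte antigen CD45, averaged 92.4 FPKM in U937 +FA OTX libraries and 39.6 FPKM in U937 +FA DMSO libraries, and 23.3 FPKM in IMS-M2 +FA OTX libraries and 55.8 FPKM in IMS-M2 +FA DMSO libraries. Their part in the results was not tested. MYC and HEXIM1, common readouts of BET inhibition, moved in opposite directions. MYC fell in all 4 settings, with log2 changes of -3.08 in U937 -FA, -2.98 in U937 +FA, -0.62 in IMS-M2 -FA and -0.47 in IMS-M2 +FA. HEXIM1, an inhibitor of the elongation kinase P-TEFb, rose in all 4, with changes of 2.02, 1.24, 2.03 and 2.31 in the same order.

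Several DMSO libraries stood apart from the others of their group over these genes. In IMS-M2 +FA DMSO replicate 1, 25 of the 31 genes were below the mean of the other libraries of the group, with a median log2 deviation of -0.26 against -0.06 over all genes. IMS-M2 +FA DMSO replicate 3 deviated the other way, by 0.21 against 0.05 over all genes, with 6 of the 31 genes below. With 3 libraries in a group, the values do not show which of them is off. In U937 +FA DMSO replicate 1 the median deviation was 0.21, against 0.05 over all genes. The U937 -FA table numbers its columns 0 to 2. DMSO column 1 deviated by -0.25 and DMSO column 2 by 0.20, while the medians over all genes were -0.01 and -0.02. Where leaving out such a library ended a call or moved a called value by over 1.5 times, the value without it, or a range that holds it, is given.

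Polymerase I transcribes the large ribosomal RNA precursor, polymerase II the messenger RNAs and many small nuclear RNAs, and polymerase III transfer RNAs, 5S ribosomal RNA and other short RNAs. Each enzyme has a pair of large catalytic subunits of its own, POLR1A with POLR1B, POLR2A with POLR2B and POLR3A with POLR3B, surrounded by smaller subunits. Some of these are used by more than one enzyme: POLR1C and POLR1D belong to polymerases I and III, and POLR2E, POLR2F, POLR2H, POLR2K and POLR2L to all of them. MYC is known to promote transcription by all these polymerases in growing cells. By this sorting, 3 of the 31 genes encode subunits of polymerase I alone, 2 are shared by I and III, 5 by all, 7 belong to polymerase II alone and 10 to polymerase III alone. The remaining 4 are the POLR2J copies POLR2J2, POLR2J3 and POLR2J4, and POLR2M, a polymerase II associated protein also known as Gdown1.

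The promoters of 4 of the genes whose transcripts moved in every or nearly every setting are shown, 3 that fell and POLR2A, which rose. Each run is 300 bases of RefSeq sequence on assembly GRCh38.p14, 250 before and 50 after the annotated start, on the gene's own strand. Capitals mark matches, on either strand, to the motifs searched, which were CACGTG (the E-box that MYC with MAX binds), CCGGAAG (an ETS family core), GCATGCGC (an NRF1 motif) and TATAAA (the core-promoter element named after it). POLR1B lies at chr2:112542215-112542514 on the plus strand, POLR1C at chr6:43516839-43517138 on the plus strand, POLR3E at chr16:22297159-22297458 on the plus strand and POLR2A at chr17:7484116-7484415 on the plus strand.
POLR1B: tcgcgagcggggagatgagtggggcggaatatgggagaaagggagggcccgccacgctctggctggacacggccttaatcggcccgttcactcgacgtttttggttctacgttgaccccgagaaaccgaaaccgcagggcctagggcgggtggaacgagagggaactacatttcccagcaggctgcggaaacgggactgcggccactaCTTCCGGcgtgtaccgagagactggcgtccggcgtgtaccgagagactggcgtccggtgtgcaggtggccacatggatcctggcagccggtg
POLR1C: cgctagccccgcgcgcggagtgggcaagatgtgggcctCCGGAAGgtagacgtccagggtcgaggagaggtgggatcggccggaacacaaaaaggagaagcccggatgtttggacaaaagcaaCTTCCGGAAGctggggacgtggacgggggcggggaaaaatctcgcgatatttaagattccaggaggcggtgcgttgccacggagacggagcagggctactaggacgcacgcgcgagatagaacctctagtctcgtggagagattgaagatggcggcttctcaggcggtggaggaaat
POLR3E: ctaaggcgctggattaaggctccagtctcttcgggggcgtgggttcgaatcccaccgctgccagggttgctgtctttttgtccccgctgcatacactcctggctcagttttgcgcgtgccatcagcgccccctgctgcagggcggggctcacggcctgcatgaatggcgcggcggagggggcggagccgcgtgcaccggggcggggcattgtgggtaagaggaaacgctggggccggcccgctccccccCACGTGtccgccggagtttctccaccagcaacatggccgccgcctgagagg
POLR2A: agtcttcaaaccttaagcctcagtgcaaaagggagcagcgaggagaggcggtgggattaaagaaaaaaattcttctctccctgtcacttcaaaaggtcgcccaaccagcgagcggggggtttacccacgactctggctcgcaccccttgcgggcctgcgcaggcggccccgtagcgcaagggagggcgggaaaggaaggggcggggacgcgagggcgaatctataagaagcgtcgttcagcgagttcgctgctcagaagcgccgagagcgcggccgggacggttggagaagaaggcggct

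POLR1B holds 1 CCGGAAG match, beginning at base -42 from the start, and POLR1C holds 3, beginning at -212, -127 and -124. POLR3E holds CACGTG at the start itself, beginning at -1, and POLR2A holds none of the 4 motifs in this window. POLR1A, which fell in 3 settings, and POLR3GL, which rose in 4, also had promoters that could be shown. Those hold none of the 4 motifs. A second annotated start of POLR1B also has 1 CCGGAAG match, beginning at -126. Of the 31 genes, 21 were matched to a promoter that could be shown. CACGTG was in 3 of the 21 (14.3%), the polymerase III genes POLR3A, POLR3C and POLR3E, against 8.77% of the 27305 genes with a promoter in the table. CCGGAAG was in 9 of 21 (42.9%), against 12.2% of genes. GCATGCGC was in 4 of 21 (19%), namely POLR2F, POLR2H, POLR2J2 and POLR3B, against 3.68%. TATAAA was in 1 of 21 (4.76%), POLR2M, against 14%. The reverse complement of GCATGCGC can overlap it, and CACGTG is its own reverse complement. The 27305 genes include genes not expressed here, whereas all 31 genes were expressed, so these shares compare unlike sets. A match describes the letters and shows neither binding nor a cause.

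All 31 genes passed the filter on low values (a mean of at least 1 FPKM in any fitted group), POLR3G in the U937 fit only through its DMSO groups. More of these genes fell than rose with OTX in each of the 4 settings, as did more of all genes tested in every setting but U937 +FA. In U937 -FA, 21 of 31 were called, 4 higher and 17 lower, where 59.8% of the 11194 genes tested were called, 28% higher and 31.7% lower. In U937 +FA, 15 were called, 5 higher and 10 lower, against a background of 56.1%, with 29.1% higher and 27% lower. In IMS-M2 -FA, 11 were called, 4 higher and 7 lower, against a background of 57.5% of the 11223 genes tested, with 27.5% higher and 30% lower. The shares higher and lower there were both under those of all genes. In IMS-M2 +FA, 20 were called, 6 higher and 14 lower, against a background of 63.2%, with 29.8% higher and 33.4% lower.

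Read against those backgrounds, the share called was near that of all genes in U937 -FA (67.7%) and IMS-M2 +FA (64.5%), and below it in U937 +FA (48.4%) and IMS-M2 -FA (35.5%). The median log2 change of the 31 genes was -0.53 in U937 -FA against -0.02 over all genes tested, and -0.10 against 0.02 in U937 +FA. It was -0.09 against -0.01 in IMS-M2 -FA and -0.23 against -0.03 in IMS-M2 +FA. Without any 1 library the counts ran from 19 to 22 in U937 -FA, 13 to 15 in U937 +FA, 10 to 11 in IMS-M2 -FA and 17 to 22 in IMS-M2 +FA.

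How many of all genes tested fell or rose in several settings was not counted, so the counts that follow have no background. Across the 4 settings, 6 genes fell in every one: POLR1B, POLR1C, POLR1E, POLR2I, POLR3D and POLR3G. A further 2 fell in 3 settings (POLR1A and POLR3E), 7 in 2 (among them POLR1D, POLR2D, POLR2F, POLR2H, POLR3C and POLR3K) and 4 in 1 (POLR2C, POLR2G, POLR3A and POLR3B). POLR2A and POLR3GL rose in every setting, POLR2J4 in 3, POLR2J3, POLR2K and POLR2L in 2, and POLR2E and POLR2J in 1. POLR2B, POLR2J2, POLR2M and POLR3F were called in none. No gene of the 31 rose in some settings and fell in others in this fit. In a fit of the contrasted groups alone, POLR2G, which fell in IMS-M2 +FA, was called higher in U937 +FA (log2 0.64, adjusted p = 0.0277).

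**Figure D1:**
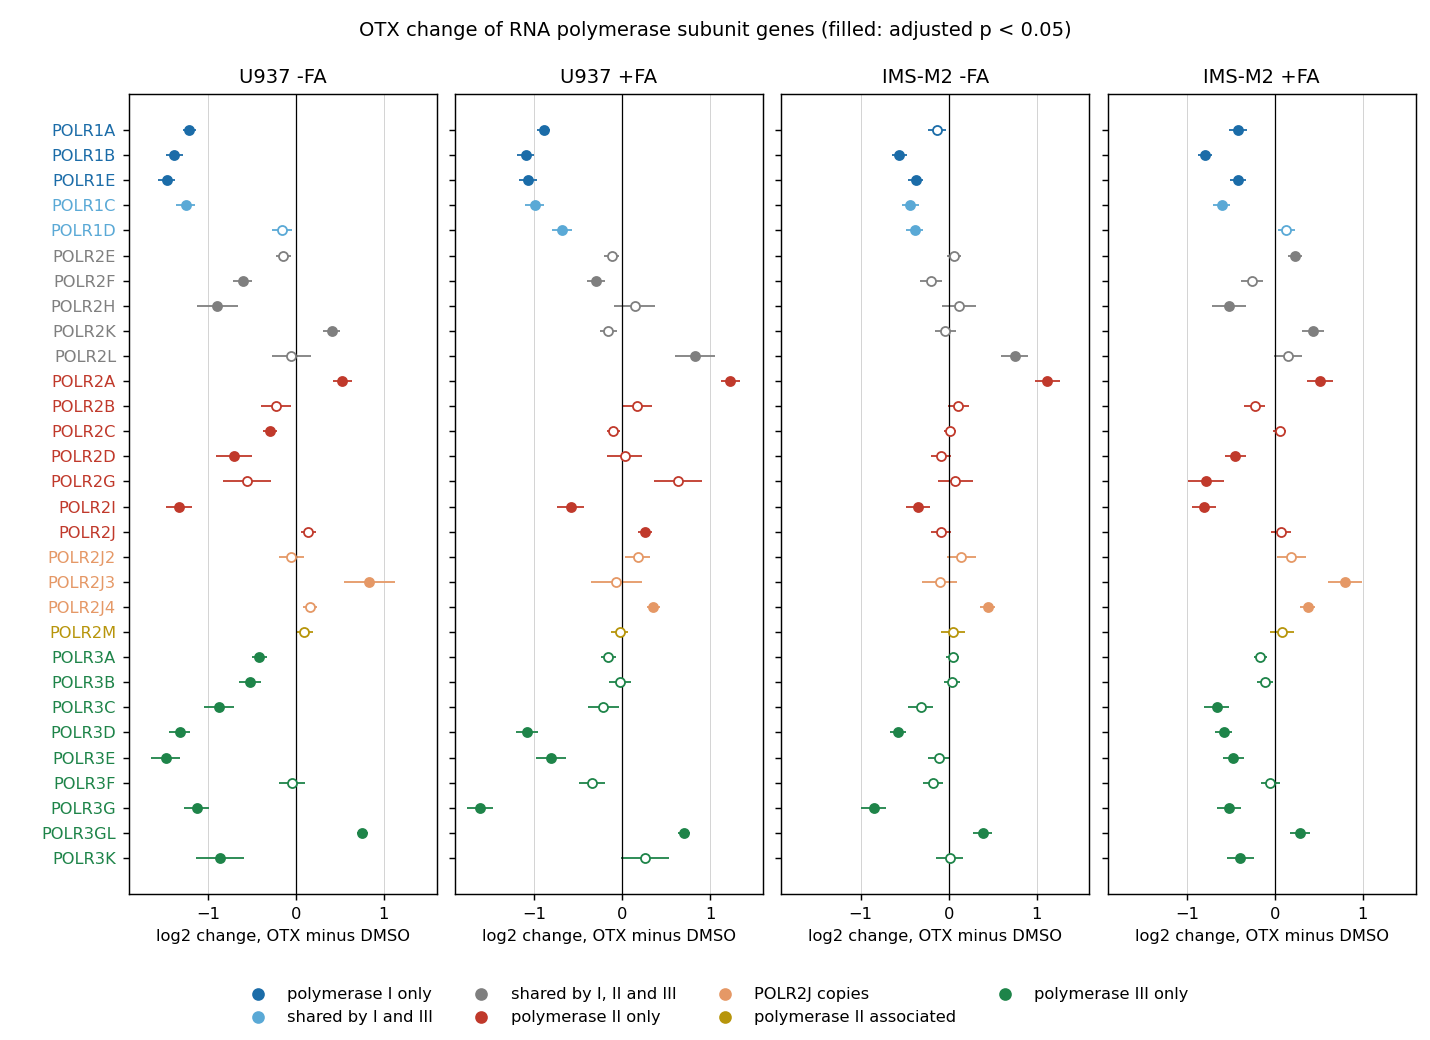
Log2 change, OTX minus DMSO, with its SE, of 30 of the 31 subunit genes (rows, grouped and coloured by the enzyme they belong to) in 4 panels, U937 -FA, U937 +FA, IMS-M2 -FA and IMS-M2 +FA. Filled points passed an adjusted p below 0.05; the polymerase I genes POLR1B, POLR1C and POLR1E lie left of 0 in every panel, and POLR2A and POLR3GL lie right of it.

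The polymerase I subunits fell under OTX in both lines, most of them further in U937. POLR1A, the largest catalytic subunit, at chr2:86253450-86333278 (hg19 coordinates throughout, as the tables give them), had 5.42, 4.51 and 5.04 FPKM in U937 -FA OTX libraries, against 13.2, 12.1 and 13.3 FPKM in U937 -FA DMSO libraries. It had 5.68, 5.58 and 5.79 FPKM in U937 +FA OTX, against 11.9, 11.4 and 10.9 FPKM in U937 +FA DMSO. In both U937 settings every OTX library was under every DMSO library, and the log2 changes were -1.21 ± 0.07 (adjusted p = 2.05e-07) and -0.89 ± 0.07 (adjusted p = 1.99e-06). In IMS-M2 -FA the groups overlapped, with 10.9, 9.81 and 10.5 FPKM in OTX libraries and 9.59, 12.4 and 12.6 FPKM in DMSO libraries. That change did not pass the test (log2 -0.13 ± 0.10, adjusted p = 0.284). In IMS-M2 +FA, POLR1A averaged 10.6 ± 0.952 FPKM in OTX libraries and 14.5 ± 0.865 FPKM in DMSO libraries (SD, n = 3 each), and fell (log2 -0.42 ± 0.10, adjusted p = 0.00308).

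POLR1B, the second-largest catalytic subunit, at chr2:113299491-113334727, had 8.47, 8.12 and 9.11 FPKM in U937 -FA OTX libraries, against 23.3, 23 and 25.5 FPKM in U937 -FA DMSO libraries. It had 9.50, 10.5 and 11.9 FPKM in U937 +FA OTX, against 26.7, 22.7 and 22.2 FPKM in U937 +FA DMSO. The IMS-M2 -FA values were 14.2, 13.1 and 13.9 FPKM with OTX and 19.1, 20.9 and 22.3 FPKM with DMSO. In these settings the groups did not overlap, nor in IMS-M2 +FA, where OTX libraries had 13.8, 14.4 and 14.3 FPKM and DMSO libraries 22.5, 26.2 and 27.2 FPKM. The log2 changes were -1.38 ± 0.10 in U937 -FA, -1.10 ± 0.10 in U937 +FA, -0.56 ± 0.08 in IMS-M2 -FA and -0.79 ± 0.08 in IMS-M2 +FA, with adjusted p of 5.21e-07, 3.06e-06, 9.13e-05 and 3.87e-06.

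POLR1E, which forms a heterodimer with the CD3EAP product on the enzyme's surface, behaved likewise. It averaged 9.83 ± 0.550 FPKM in U937 -FA OTX libraries and 29.1 ± 3.24 FPKM in U937 -FA DMSO libraries (SD, n = 3 each), and fell (log2 -1.47 ± 0.10, adjusted p = 4.3e-07). Its log2 change was -1.07 ± 0.10 in U937 +FA (adjusted p = 4.8e-06). In IMS-M2 it was -0.37 ± 0.09 without FA (adjusted p = 0.0026) and -0.42 ± 0.09 with FA (adjusted p = 0.001). The ratio of POLR1A to POLR1B FPKM was 0.75 to 0.77 in the IMS-M2 -FA OTX libraries and 0.50 to 0.59 in the IMS-M2 -FA DMSO libraries. In U937 -FA the ratio was 0.55 to 0.64 with OTX and 0.52 to 0.57 with DMSO. The ratios are a description and were not tested.

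**Figure D2:**
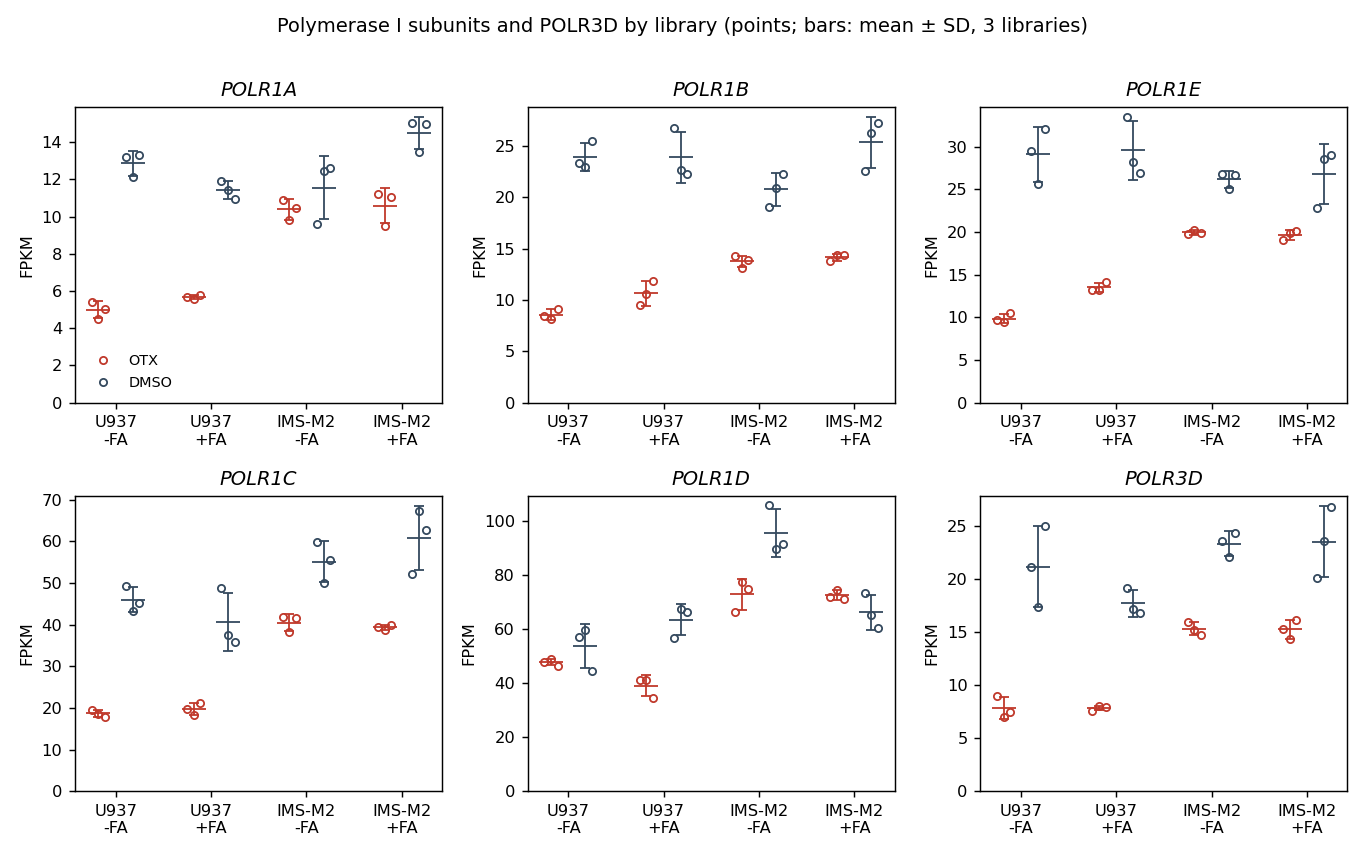
FPKM by library (points) of POLR1A, POLR1B, POLR1E, POLR1C, POLR1D and POLR3D in each line and folic acid condition, OTX (red) left of DMSO (dark blue), with bars for the mean and SD of 3 libraries. POLR1B, POLR1E, POLR1C and POLR3D are lower in every OTX library than in any DMSO library of the same setting, while POLR1D overlaps in U937 -FA and IMS-M2 +FA.

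The subunits shared by polymerases I and III, POLR1C and POLR1D, assemble with each other. POLR1C fell in all 4 settings and POLR1D in 2. POLR1C, at chr6:43484776-43489246, had 19.6, 18.6 and 18 FPKM in U937 -FA OTX libraries, against 49.3, 43.4 and 45.2 FPKM in U937 -FA DMSO libraries. In IMS-M2 +FA it had 39.4, 38.7 and 39.9 FPKM with OTX and 52.3, 67.2 and 62.8 FPKM with DMSO. The groups did not overlap in any setting, and the log2 changes were -1.25 ± 0.11 in U937 -FA, -0.996 ± 0.11 in U937 +FA, -0.43 ± 0.10 in IMS-M2 -FA and -0.61 ± 0.10 in IMS-M2 +FA (adjusted p = 2.79e-06, 1.69e-05, 0.00192 and 0.000135).

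POLR1D, at chr13:28194879-28241559, fell in U937 with FA and in IMS-M2 without it. It had 41.3, 41.3 and 34.6 FPKM in U937 +FA OTX libraries, against 56.7, 67.4 and 66.3 FPKM in U937 +FA DMSO libraries (log2 -0.69 ± 0.12, adjusted p = 0.000426). It had 66.2, 77.4 and 74.6 FPKM in IMS-M2 -FA OTX, against 106, 89.5 and 91.2 FPKM in IMS-M2 -FA DMSO (log2 -0.39 ± 0.09, adjusted p = 0.00344). In U937 -FA and IMS-M2 +FA the libraries overlapped and the changes of -0.16 ± 0.12 and 0.13 ± 0.09 did not pass the test (adjusted p = 0.266 and 0.237).

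The 5 subunits common to all the enzymes had no shared direction. POLR2F, a small subunit next to the enzyme's clamp, fell in U937, with log2 changes of -0.61 ± 0.10 without FA (adjusted p = 0.000378) and -0.29 ± 0.10 with FA (adjusted p = 0.0294). The call with FA was lost on leaving out any 1 of U937 +FA DMSO replicates 1 and 3 or U937 +FA OTX replicates 2 and 3 (log2 -0.30 to -0.21, adjusted p up to 0.111). POLR2K, a small zinc-binding subunit, rose in U937 -FA and IMS-M2 +FA. It had 47.5, 58.3 and 58.1 FPKM in U937 -FA OTX libraries, against 42.3, 42.9 and 37.5 FPKM in U937 -FA DMSO libraries, without overlap (log2 0.41 ± 0.10, adjusted p = 0.00421). In IMS-M2 +FA its change was 0.43 ± 0.12 (adjusted p = 0.00796).

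POLR2L, another zinc-binding subunit, rose in the other settings. It had 147, 138 and 177 FPKM in U937 +FA OTX libraries, against 113, 69.3 and 80.6 FPKM in U937 +FA DMSO libraries (log2 0.83 ± 0.22, adjusted p = 0.00841). In IMS-M2 -FA it had 180.0, 139 and 179 FPKM with OTX and 102, 86.3 and 106 FPKM with DMSO (log2 0.75 ± 0.16, adjusted p = 0.00134). These groups did not overlap, while in U937 -FA and IMS-M2 +FA the changes of -0.05 and 0.15 did not pass the test. POLR2E changed by between -0.14 and 0.23 and was called only in IMS-M2 +FA, where it rose (adjusted p = 0.0246). That call was lost on leaving out any 1 of IMS-M2 +FA DMSO replicate 2 or IMS-M2 +FA OTX replicates 1 and 3 (log2 0.18 to 0.20, adjusted p up to 0.0916), and also in a fit of the contrasted groups alone (adjusted p = 0.0758).

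Among the subunits of polymerase II alone, the largest, POLR2A, rose in all 4 settings while its catalytic partner POLR2B was called in none. POLR2A carries the C-terminal repeat domain whose phosphorylation governs initiation and elongation, and lies at chr17:7387697-7417935. It had 64.2, 61.9 and 72.2 FPKM in U937 -FA OTX libraries, against 45.8, 39.7 and 51.5 FPKM in U937 -FA DMSO libraries (log2 0.53 ± 0.11, adjusted p = 0.00176). It had 86.8, 80.6 and 96.8 FPKM in U937 +FA OTX, against 40.7, 34.1 and 36.1 FPKM in U937 +FA DMSO (log2 1.23 ± 0.11, adjusted p = 4.31e-06). Neither U937 setting showed overlap. In IMS-M2 -FA it had 135, 113 and 143 FPKM with OTX and 49.9, 60.4 and 68.1 FPKM with DMSO (log2 1.12 ± 0.14, adjusted p = 2.85e-05). In IMS-M2 +FA it had 118, 98.6 and 129 FPKM with OTX and 73.8, 73.3 and 94.4 FPKM with DMSO (log2 0.51 ± 0.14, adjusted p = 0.00775). Every OTX library was above every DMSO library in all 4 settings.

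POLR2B averaged 47.7 ± 3.83 FPKM in U937 -FA OTX libraries and 56.5 ± 11.5 FPKM in U937 -FA DMSO libraries, and 60.7 ± 9.02 FPKM with OTX and 54.1 ± 10.9 FPKM with DMSO in U937 +FA (SD, n = 3 each). Its log2 changes were -0.22 ± 0.17 in U937 -FA, 0.17 ± 0.17 in U937 +FA, 0.11 ± 0.12 in IMS-M2 -FA and -0.23 ± 0.12 in IMS-M2 +FA (adjusted p = 0.274, 0.412, 0.447 and 0.109). The ratio of POLR2A to POLR2B FPKM, a description with no test, was 1.30 to 1.46 in U937 -FA OTX libraries and 0.75 to 0.85 in U937 -FA DMSO libraries. In U937 +FA it was 1.33 to 1.68 with OTX and 0.61 to 0.80 with DMSO. In IMS-M2 -FA it was 1.73 to 2.49 with OTX and 0.91 to 1.16 with DMSO, and in IMS-M2 +FA it was 1.65 to 2.49 with OTX and 1.03 to 1.45 with DMSO. The ranges did not overlap in any setting.

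**Figure D3:**
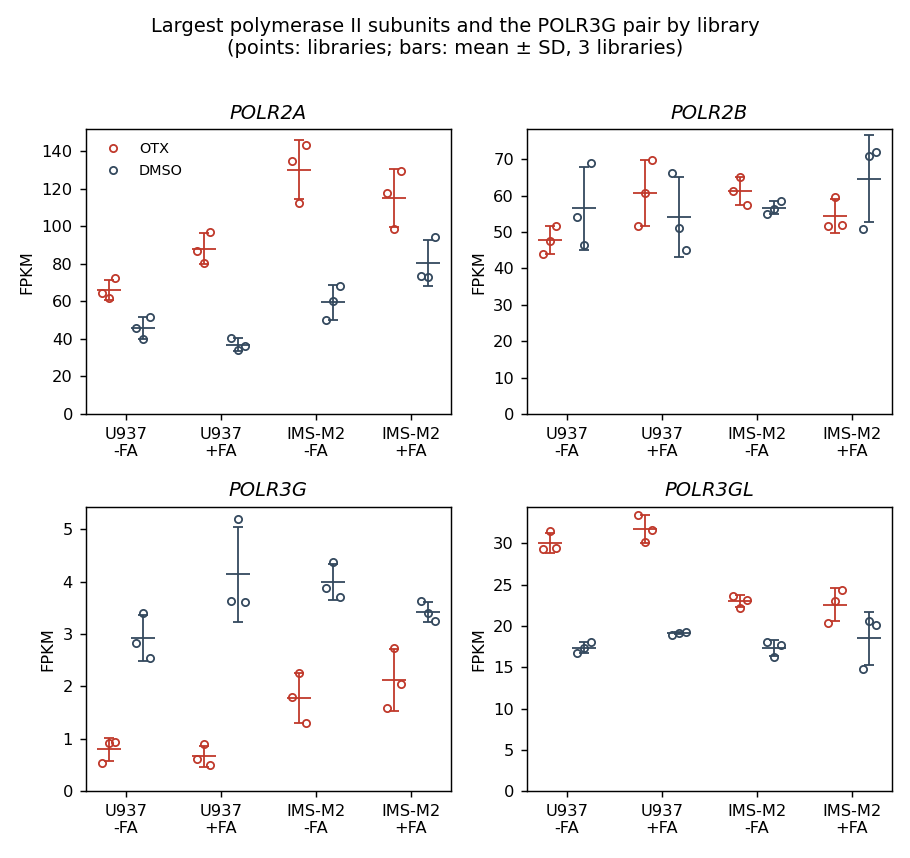
FPKM by library (points) of POLR2A and POLR2B, the large polymerase II subunits, and of POLR3G and POLR3GL, alternative polymerase III subunits, OTX (red) left of DMSO (dark blue), with bars for the mean and SD of 3 libraries. POLR2A is higher in every OTX library and POLR3G lower in every OTX library of each setting, POLR2B overlaps in all 4, and POLR3GL overlaps in IMS-M2 +FA.

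POLR2I, a small subunit involved in start-site choice and transcript fidelity, had the largest fall among the POLR2 genes in each setting. It lies at chr19:36602104-36616849, an interval that the tables also give to OVOL3 and TBCB. It had 39.2, 34.3 and 42.2 FPKM in U937 -FA OTX libraries, against 105, 81.1 and 111 FPKM in U937 -FA DMSO libraries (log2 -1.33 ± 0.15, adjusted p = 1.93e-05). In IMS-M2 +FA it had 45.7, 44.1 and 46.9 FPKM with OTX and 60.5, 86.8 and 98.9 FPKM with DMSO (log2 -0.81 ± 0.13, adjusted p = 0.000203). It was lower in every OTX library of all 4 settings, with changes of -0.59 ± 0.15 in U937 +FA (adjusted p = 0.00613) and -0.35 ± 0.13 in IMS-M2 -FA (adjusted p = 0.0408). The IMS-M2 -FA call was lost on leaving out any 1 of its 6 libraries (log2 -0.38 to -0.32, adjusted p up to 0.105), and also with no filter on low values (adjusted p = 0.0703).

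POLR2G and POLR2D form the stalk of polymerase II, and these and several other subunits scattered widely between DMSO libraries. POLR2G, at chr11:62529010-62534187, had 84, 77.4 and 90.6 FPKM in IMS-M2 +FA OTX libraries, against 96.8, 164 and 192 FPKM in IMS-M2 +FA DMSO libraries (log2 -0.78 ± 0.20, adjusted p = 0.00427). In U937 -FA it had 86.4, 74.7 and 88.8 FPKM with OTX and 118, 82.3 and 190.5 FPKM with DMSO, overlapping groups whose change did not pass the test (log2 -0.56 ± 0.27, adjusted p = 0.096). In U937 +FA its change was 0.64 ± 0.27 (adjusted p = 0.0659), and it was called in a fit of the contrasted groups alone (adjusted p = 0.0277). The low DMSO value in IMS-M2 +FA came from replicate 1, without which the change was -1.07, and the high one in U937 -FA from column 2. Both libraries stood apart over these genes. So did IMS-M2 +FA DMSO replicate 3, which had the highest value of its group, 192 FPKM.

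POLR2D had 25.7, 25.3 and 29 FPKM in U937 -FA OTX libraries, against 39.8, 33.5 and 63.3 FPKM in U937 -FA DMSO libraries. Its log2 change there was -0.70 ± 0.20 (adjusted p = 0.011), and -0.44 without DMSO column 2. In IMS-M2 +FA it also fell (log2 -0.45 ± 0.12, adjusted p = 0.00504). POLR2H, a subunit shared by all the enzymes, had 57.8, 52.5 and 60.3 FPKM in U937 -FA OTX libraries and 101, 77.8 and 153 FPKM in U937 -FA DMSO libraries (log2 -0.89 ± 0.23, adjusted p = 0.0058). In IMS-M2 +FA it had 83.8, 82.6 and 90.5 FPKM with OTX and 82.7, 139 and 162 FPKM with DMSO, groups that overlap through DMSO replicate 1. Its change there was -0.52 ± 0.19 (adjusted p = 0.0316). It was -0.80 without DMSO replicate 1, and it was no longer called on leaving out any 1 of IMS-M2 +FA DMSO replicates 2 and 3 or IMS-M2 +FA OTX replicates 1 and 2 (log2 -0.50 to -0.32, adjusted p up to 0.146), and also with no filter on low values (adjusted p = 0.0632) and in a fit of the contrasted groups alone (adjusted p = 0.0723).

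**Figure D4:**
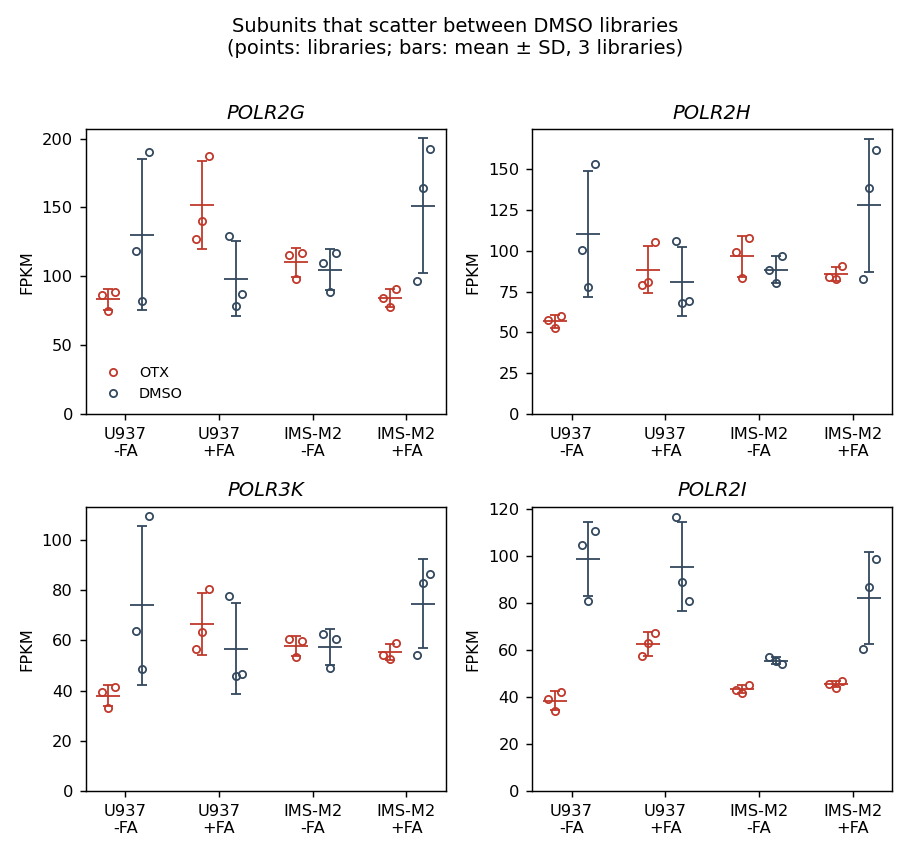
FPKM by library (points) of POLR2G, POLR2H, POLR3K and POLR2I, OTX (red) left of DMSO (dark blue), with bars for the mean and SD of 3 libraries. In POLR2G, POLR2H and POLR3K 1 DMSO library is high in each U937 setting and 1 is low in IMS-M2 +FA. POLR2I also has 1 high DMSO library in U937 +FA and 1 low in IMS-M2 +FA, and is lower in every OTX library than in any DMSO library of the same setting.

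POLR2C and POLR2J, the partners that nucleate polymerase II assembly, changed little. POLR2C, whose interval the tables also give to DOK4, was called only in U937 -FA, where it averaged 37.7 ± 1.78 FPKM with OTX and 46.6 ± 3.38 FPKM with DMSO (log2 -0.30 ± 0.08, adjusted p = 0.00651). POLR2J was called only in U937 +FA (log2 0.26 ± 0.08, adjusted p = 0.0172), a call lost on leaving out U937 +FA DMSO replicate 1 or U937 +FA OTX replicate 3 (log2 0.19 to 0.24, adjusted p up to 0.0631). The copies POLR2J2, POLR2J3 and POLR2J4 are near-identical in part to POLR2J and share intervals with SPDYE genes, so their values are uncertain. POLR2J4 rose in U937 +FA, IMS-M2 -FA and IMS-M2 +FA, by 0.36, 0.44 and 0.37. With a pseudocount of 0.1 FPKM these changes were 0.54, 0.69 and 0.57. Its level was low, with 2.01 FPKM in IMS-M2 -FA OTX libraries and 1.21 FPKM in IMS-M2 -FA DMSO libraries. POLR2J3 rose in IMS-M2 +FA (log2 0.80 ± 0.20, adjusted p = 0.0036) and in U937 -FA (log2 0.84 ± 0.29, adjusted p = 0.0271). It had 4.24, 3.90 and 3.47 FPKM in U937 -FA OTX libraries and 2.67, 2.49 and 0.575 FPKM in U937 -FA DMSO libraries, and that call was lost on leaving out any 1 of U937 -FA DMSO column 2 or U937 -FA OTX columns 0 and 1 (log2 0.44 to 0.83, adjusted p up to 0.0764), and also with no filter on low values (adjusted p = 0.0535). POLR2M, whose interval the tables share with GCOM1 and MYZAP, changed by between -0.03 and 0.10 and was not called.

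Of the 10 polymerase III subunits, 8 fell and 1 rose in U937 -FA, where 31.7% of all genes fell, and 6 fell and 1 rose in IMS-M2 +FA, where 33.4% of all genes fell. In U937 +FA 3 fell and 1 rose, and in IMS-M2 -FA 2 fell and 1 rose, shares lower that are near or under the 27% and 30% of all genes that fell there. POLR3D and POLR3E form a heterodimer that acts in initiation and termination. POLR3D, at chr8:22102618-22108680, had 8.97, 6.97 and 7.49 FPKM in U937 -FA OTX libraries, against 21.1, 17.3 and 25 FPKM in U937 -FA DMSO libraries. It had 7.61, 8 and 7.91 FPKM in U937 +FA OTX, against 19.2, 17.1 and 16.8 FPKM in U937 +FA DMSO. The groups did not overlap in any setting, and the log2 changes were -1.32 ± 0.12 in U937 -FA, -1.08 ± 0.12 in U937 +FA, -0.58 ± 0.09 in IMS-M2 -FA and -0.58 ± 0.09 in IMS-M2 +FA (adjusted p = 4.04e-06, 2.02e-05, 0.0002 and 0.000159).

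POLR3E, at chr16:22308695-22346424, had 9.63, 8.89 and 10.4 FPKM in U937 -FA OTX libraries, against 27.8, 22.5 and 37.5 FPKM in U937 -FA DMSO libraries (log2 -1.48 ± 0.17, adjusted p = 1.88e-05). It also fell in U937 +FA and IMS-M2 +FA, with changes of -0.81 ± 0.17 in U937 +FA (adjusted p = 0.0016) and -0.47 ± 0.12 in IMS-M2 +FA (adjusted p = 0.0052). In IMS-M2 -FA it had 24.7, 22.7 and 22.4 FPKM with OTX and 25.9, 24 and 25.5 FPKM with DMSO, overlapping groups (log2 -0.11 ± 0.12, adjusted p = 0.478).

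The catalytic subunits POLR3A and POLR3B were called in U937 -FA alone, where both fell. POLR3A, at chr10:79734906-79789298, had 5.18, 4.96 and 5.37 FPKM in U937 -FA OTX libraries, against 7.38, 6.34 and 8.01 FPKM in U937 -FA DMSO libraries (log2 -0.41 ± 0.08, adjusted p = 0.00137). POLR3B had 3.87, 4.39 and 4.41 FPKM with OTX and 6.36, 5.67 and 7.61 FPKM with DMSO in the same setting (log2 -0.53 ± 0.13, adjusted p = 0.00355). The tables give POLR3B an interval, chr12:106751435-107283094, that also covers RFX4 and RIC8B. In U937 +FA, IMS-M2 -FA and IMS-M2 +FA the changes of POLR3A were -0.16 ± 0.08, 0.05 ± 0.08 and -0.17 ± 0.08, and those of POLR3B -0.03 ± 0.13, 0.04 ± 0.09 and -0.11 ± 0.09, none past the threshold.

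POLR3G and POLR3GL are alternative versions of 1 subunit, with POLR3G known from stem and cancer cells and POLR3GL found widely. They moved in opposite directions in all 4 settings. POLR3G, at chr5:89770680-89810369, had 0.541, 0.925 and 0.935 FPKM in U937 -FA OTX libraries, against 2.83, 3.40 and 2.54 FPKM in U937 -FA DMSO libraries. It had 0.613, 0.894 and 0.50 FPKM in U937 +FA OTX, against 3.63, 5.19 and 3.60 FPKM in U937 +FA DMSO. In IMS-M2 -FA it had 1.80, 2.25 and 1.30 FPKM with OTX and 3.88, 4.37 and 3.71 FPKM with DMSO. It was lower in every OTX library, and the IMS-M2 +FA values were 1.58, 2.74 and 2.04 FPKM with OTX and 3.63, 3.40 and 3.25 FPKM with DMSO. The log2 changes were -1.13 ± 0.14, -1.62 ± 0.14, -0.85 ± 0.14 and -0.52 ± 0.14 in U937 -FA, U937 +FA, IMS-M2 -FA and IMS-M2 +FA (adjusted p = 4.62e-05, 3.5e-06, 0.000195 and 0.00571). In U937 POLR3G passed the filter on low values only through its DMSO groups, so its U937 p-values carry that selection. It averaged 0.800 FPKM in U937 -FA OTX libraries and 0.669 FPKM in U937 +FA OTX libraries. The pseudocount of 1 FPKM understates changes at these levels: with 0.1 FPKM the U937 changes were -1.77 without FA and -2.47 with FA.

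POLR3GL, at chr1:145456235-145470387, had 29.3, 31.5 and 29.4 FPKM in U937 -FA OTX libraries, against 16.7, 17.4 and 18.1 FPKM in U937 -FA DMSO libraries (log2 0.76 ± 0.07, adjusted p = 2.88e-06). It had 33.5, 30.2 and 31.6 FPKM in U937 +FA OTX, against 19, 19.2 and 19.3 FPKM in U937 +FA DMSO (log2 0.70 ± 0.07, adjusted p = 5.99e-06). Both U937 settings and IMS-M2 -FA (log2 0.39 ± 0.11, adjusted p = 0.00978) showed no overlap. In IMS-M2 +FA OTX libraries had 20.4, 23 and 24.3 FPKM and DMSO libraries 14.8, 20.5 and 20.1 FPKM (log2 0.28 ± 0.11, adjusted p = 0.0403). That call was lost on leaving out any 1 of IMS-M2 +FA DMSO replicate 1 or IMS-M2 +FA OTX replicates 2 and 3 (log2 0.14 to 0.27, adjusted p up to 0.145), and also with no filter on low values (adjusted p = 0.0612) and in a fit of the contrasted groups alone (adjusted p = 0.107). The ratio of POLR3G to POLR3GL FPKM was 0.02 to 0.03 in U937 -FA OTX libraries and 0.14 to 0.20 in U937 -FA DMSO libraries. In U937 +FA it was 0.02 to 0.03 with OTX and 0.19 to 0.27 with DMSO. In IMS-M2 -FA it was 0.06 to 0.10 with OTX and 0.21 to 0.27 with DMSO, and in IMS-M2 +FA 0.08 to 0.12 with OTX and 0.16 to 0.25 with DMSO. POLR3GL thus had the higher level in every library, and the ratio, given with no test, was lower in every OTX library than in any DMSO library of its setting.

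POLR3C and POLR3F, which form an initiation subcomplex with the POLR3G or POLR3GL product, differed. POLR3C fell in U937 -FA (log2 -0.88 ± 0.17, adjusted p = 0.00108) and in IMS-M2 +FA (log2 -0.66 ± 0.14, adjusted p = 0.0012). These changes were -0.66 without U937 -FA DMSO column 2 and -0.83 without IMS-M2 +FA DMSO replicate 1. POLR3F changed by between -0.34 and -0.04 and was not called. POLR3K, which acts in transcript cleavage, was called in U937 -FA and IMS-M2 +FA alone, where it fell. It had 39.6, 33.3 and 41.3 FPKM in U937 -FA OTX libraries, against 63.8, 48.6 and 109 FPKM in U937 -FA DMSO libraries (log2 -0.86 ± 0.27, adjusted p = 0.0177). It was highest in DMSO column 2, and this call was lost on leaving out any 1 of U937 -FA DMSO column 2 or U937 -FA OTX column 1 (log2 -0.77 to -0.54, adjusted p up to 0.064). In IMS-M2 +FA its change was -0.40 ± 0.15 (adjusted p = 0.0375). There the change was -0.61 without DMSO replicate 1, and its call was lost on leaving out any 1 of IMS-M2 +FA DMSO replicates 2 and 3 or IMS-M2 +FA OTX replicates 1 and 2 (log2 -0.38 to -0.28, adjusted p up to 0.152), and also with no filter on low values (adjusted p = 0.0671) and in a fit of the contrasted groups alone (adjusted p = 0.0772).

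Levels of the subunits under DMSO are set side by side, since the folic acid conditions and lines lie in separate tables and whether these shared a normalization is not stated. No test was made of them. The largest subunits differed by enzyme. POLR1A averaged 12.9, 11.4, 11.6 and 14.5 FPKM in the DMSO groups of U937 -FA, U937 +FA, IMS-M2 -FA and IMS-M2 +FA. POLR2A averaged 45.7, 37, 59.5 and 80.5 FPKM, and POLR3A 7.24, 6.14, 7.64 and 8.75 FPKM in the same order. Of these, POLR2A was the highest and POLR3A the lowest in each group. POLR2B, at 56.5, 54.1, 56.6 and 64.6 FPKM, was above POLR2A in both U937 groups and below it in both IMS-M2 groups, and POLR3B averaged 6.55, 5.95, 7.12 and 8.84 FPKM. POLR2J2 averaged 1.12 and 0.758 FPKM in U937 -FA and U937 +FA, and 7.33 and 6.99 FPKM in IMS-M2 -FA and IMS-M2 +FA. POLR3C averaged 37.6 and 27.5 FPKM in U937, and 17.4 and 20.3 FPKM in IMS-M2, in the same order of conditions.

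Whether folic acid alters the OTX change was tested as the change without FA minus the change with FA, each within its own table. In U937 only POLR2A was called of the 31 genes, where 2.01% of all genes were called, 0.741% higher and 1.27% lower. It rose by 0.53 without FA and 1.23 with FA, a difference of -0.70 ± 0.16 (95% interval -1.05 to -0.35, adjusted p = 0.0496). In IMS-M2 only POLR1D was called, where 6.94% of all genes were called, 3.33% higher and 3.61% lower. Its change was -0.39 without FA and 0.13 with FA, a difference of -0.52 ± 0.13 (95% interval -0.81 to -0.23, adjusted p = 0.0394). The POLR2A call was lost on leaving out any 1 of 10 of the 12 libraries of its fit (log2 -0.77 to -0.61, adjusted p up to 0.148) and held without U937 +FA DMSO replicate 1 or U937 -FA DMSO column 1. It was also lost with a pseudocount of 0.1 FPKM (adjusted p = 0.0538), with no filter on low values (adjusted p = 0.0616) and after rescaling to an equal median (adjusted p = 0.0539). After that rescaling POLR2K was called in its place (log2 0.59, adjusted p = 0.0482). The POLR1D call was likewise lost without any 1 of 10 of 12 (log2 -0.56 to -0.44, adjusted p up to 0.119) and held without IMS-M2 +FA DMSO replicate 1 or IMS-M2 -FA OTX replicate 2. It was also lost with no filter on low values (adjusted p = 0.0582).

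In IMS-M2 the POLR2A difference was 0.61 ± 0.20 (adjusted p = 0.0802) and in U937 the POLR1D difference was 0.53 ± 0.17 (adjusted p = 0.0694), neither past the threshold in this fit. A limma fit with same-numbered libraries as blocks did call the POLR2A difference in IMS-M2 (0.61, adjusted p = 0.0184). In that fit 21.4% of all genes were called. Both genes thus had differences of opposite sign in the lines, though the difference of these differences was not tested. The other catalytic subunits and the POLR3G genes had differences, in U937 and then IMS-M2, of -0.32 and 0.29 (POLR1A), -0.28 and 0.23 (POLR1B), -0.39 and 0.34 (POLR2B) and -0.26 and 0.21 (POLR3A). They were -0.50 and 0.15 for POLR3B, 0.49 and -0.33 for POLR3G and 0.06 and 0.10 for POLR3GL. Over the 31 genes the median difference was -0.28 in U937, against -0.05 over all genes, and 0.15 in IMS-M2, against 0.03. These counts hang on some of the DMSO libraries that stood apart: without U937 -FA DMSO column 1 the count in U937 was 16, where 24% of all genes were called. Without U937 +FA DMSO replicate 1 it was 12, where 19.5% were called, and without IMS-M2 +FA DMSO replicate 1 the count in IMS-M2 was 15, where 30.4% were called. The counts over all genes thus moved with the same libraries. What sets those libraries apart was not tested.

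The OTX change of the POLR1 genes, apart from POLR1D without FA, was more negative in U937 than in IMS-M2. This was tested as the change in U937 minus the change in IMS-M2. Without FA, 18 of the 31 genes differed, 2 higher and 16 lower, where 43% of the 12197 genes tested were called, 21.5% in each direction. With FA, 12 differed, 3 higher and 9 lower, where 50.6% were called, 27.7% higher and 22.9% lower. The median difference over the 31 genes was -0.56 without FA, against -0.02 over all genes, and -0.02 with FA, against 0.04.

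Among the POLR1 genes, 4 of 5 were lower in U937 without FA and all 5 with FA. The differences without FA were -1.10 ± 0.13 for POLR1E (adjusted p = 9.79e-07), -1.08 ± 0.12 for POLR1A (adjusted p = 7.21e-07), -0.82 ± 0.12 for POLR1B (adjusted p = 2.25e-05) and -0.82 ± 0.15 for POLR1C (adjusted p = 0.000151). With FA they were -0.65 ± 0.13 for POLR1E (adjusted p = 0.000359), -0.47 ± 0.12 for POLR1A (adjusted p = 0.00396), -0.30 ± 0.12 for POLR1B (adjusted p = 0.0475) and -0.39 ± 0.15 for POLR1C (adjusted p = 0.0326). With FA, the POLR1B call was lost on leaving out any 1 of IMS-M2 +FA DMSO replicate 1, IMS-M2 +FA OTX replicates 1, 2 and 3, U937 +FA DMSO replicate 1 or U937 +FA OTX replicates 1 and 2 (log2 -0.32 to -0.22, adjusted p up to 0.132), and also with no filter on low values (adjusted p = 0.0543) and in a fit of the contrasted groups alone (adjusted p = 0.0998), and the POLR1C call on leaving out any 1 of IMS-M2 +FA DMSO replicate 1, IMS-M2 +FA OTX replicates 1 and 3, U937 +FA DMSO replicate 1 or U937 +FA OTX replicate 2 (log2 -0.39 to -0.26, adjusted p up to 0.102), and also in a fit of the contrasted groups alone (adjusted p = 0.0796). POLR1D differed with FA alone (-0.82 ± 0.15, adjusted p = 0.000168), where it fell in U937 and was not called in IMS-M2.

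Of the polymerase III genes, POLR3E had the largest difference without FA (-1.37 ± 0.22, adjusted p = 4.45e-05). POLR3D was lower in U937 in both conditions, with differences of -0.74 ± 0.16 without FA (adjusted p = 0.000739) and -0.50 ± 0.16 with FA (adjusted p = 0.0126). POLR3A and POLR3B differed without FA, by -0.46 ± 0.11 and -0.56 ± 0.16 (adjusted p = 0.00179 and 0.00779), and had differences of 0.01 and 0.08 with FA. POLR3G fell further in U937 with FA (-1.10 ± 0.21, adjusted p = 0.000238), and its difference without FA, -0.27 ± 0.21, did not pass the test (adjusted p = 0.303). With a pseudocount of 0.1 FPKM the POLR3G difference with FA was -1.78. POLR3GL rose further in U937 in both conditions, by 0.37 ± 0.13 without FA (adjusted p = 0.0266) and 0.42 ± 0.13 with FA (adjusted p = 0.0118). Its call without FA was lost on leaving out any 1 of IMS-M2 -FA DMSO replicates 1 and 3, IMS-M2 -FA OTX replicate 2, U937 -FA DMSO column 0 or U937 -FA OTX column 1 (log2 0.34 to 0.35, adjusted p up to 0.0651), and that with FA in a fit of the contrasted groups alone (adjusted p = 0.0506). POLR3K differed without FA by -0.88 ± 0.34 (adjusted p = 0.0413). Without U937 -FA DMSO column 2 this difference was -0.56. The POLR3K call was lost on leaving out any 1 of IMS-M2 -FA DMSO replicates 2 and 3, IMS-M2 -FA OTX replicates 1 and 3, U937 -FA DMSO column 2 or U937 -FA OTX columns 0 and 1 (log2 -0.92 to -0.56, adjusted p up to 0.135), and also with no filter on low values (adjusted p = 0.0635).

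The polymerase II genes were divided. POLR2A rose less in U937 than in IMS-M2 without FA (-0.59 ± 0.19, adjusted p = 0.0174) and more with FA (0.72 ± 0.19, adjusted p = 0.00431). POLR2K differed the other way round, by 0.44 ± 0.16 without FA (adjusted p = 0.0318) and -0.59 ± 0.16 with FA (adjusted p = 0.00496). POLR2I fell further in U937 without FA (-0.98 ± 0.21, adjusted p = 0.000944). POLR2H and POLR2L were lower in U937 without FA (-1.02 ± 0.32 and -0.80 ± 0.29, adjusted p = 0.016 and 0.0334). POLR2B had differences of -0.33 and 0.40 without and with FA, neither past the threshold. POLR2G was higher in U937 with FA (1.42 ± 0.36, adjusted p = 0.00318), a contrast that holds IMS-M2 +FA DMSO replicate 1 and U937 +FA DMSO replicate 1. Its difference was 1.71 without the first library and 1.63 without the second. Without the IMS-M2 library the with-FA count was 17, with 9 higher and 8 lower, where 53.9% of all genes were called. Without the U937 library it was 14, with 7 in each direction, where 53.1% were called. Without U937 -FA DMSO column 2 the count without FA was 12, with 1 higher and 11 lower, where 39% were called. Without FA, the POLR2A call was lost on leaving out IMS-M2 -FA DMSO replicate 1 (log2 -0.47, adjusted p = 0.0586), and the POLR2H call on leaving out U937 -FA DMSO column 2 (log2 -0.75, adjusted p = 0.0525). The POLR2K call was lost on leaving out any 1 of IMS-M2 -FA DMSO replicates 2 and 3, IMS-M2 -FA OTX replicate 1, U937 -FA DMSO column 2 or U937 -FA OTX columns 1 and 2 (log2 0.35 to 0.45, adjusted p up to 0.0979). The POLR2L call was lost on leaving out any 1 of IMS-M2 -FA DMSO replicate 2, IMS-M2 -FA OTX replicates 1 and 3, U937 -FA DMSO columns 0 and 2 or U937 -FA OTX columns 1 and 2 (log2 -0.80 to -0.60, adjusted p up to 0.104), and also with no filter on low values (adjusted p = 0.0513). The POLR2J4 call was lost on leaving out any 1 of IMS-M2 -FA DMSO replicates 1 and 2, IMS-M2 -FA OTX replicates 1 and 3, U937 -FA DMSO column 2 or U937 -FA OTX column 1 (log2 -0.28 to -0.24, adjusted p up to 0.0935).

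**Figure D5:**
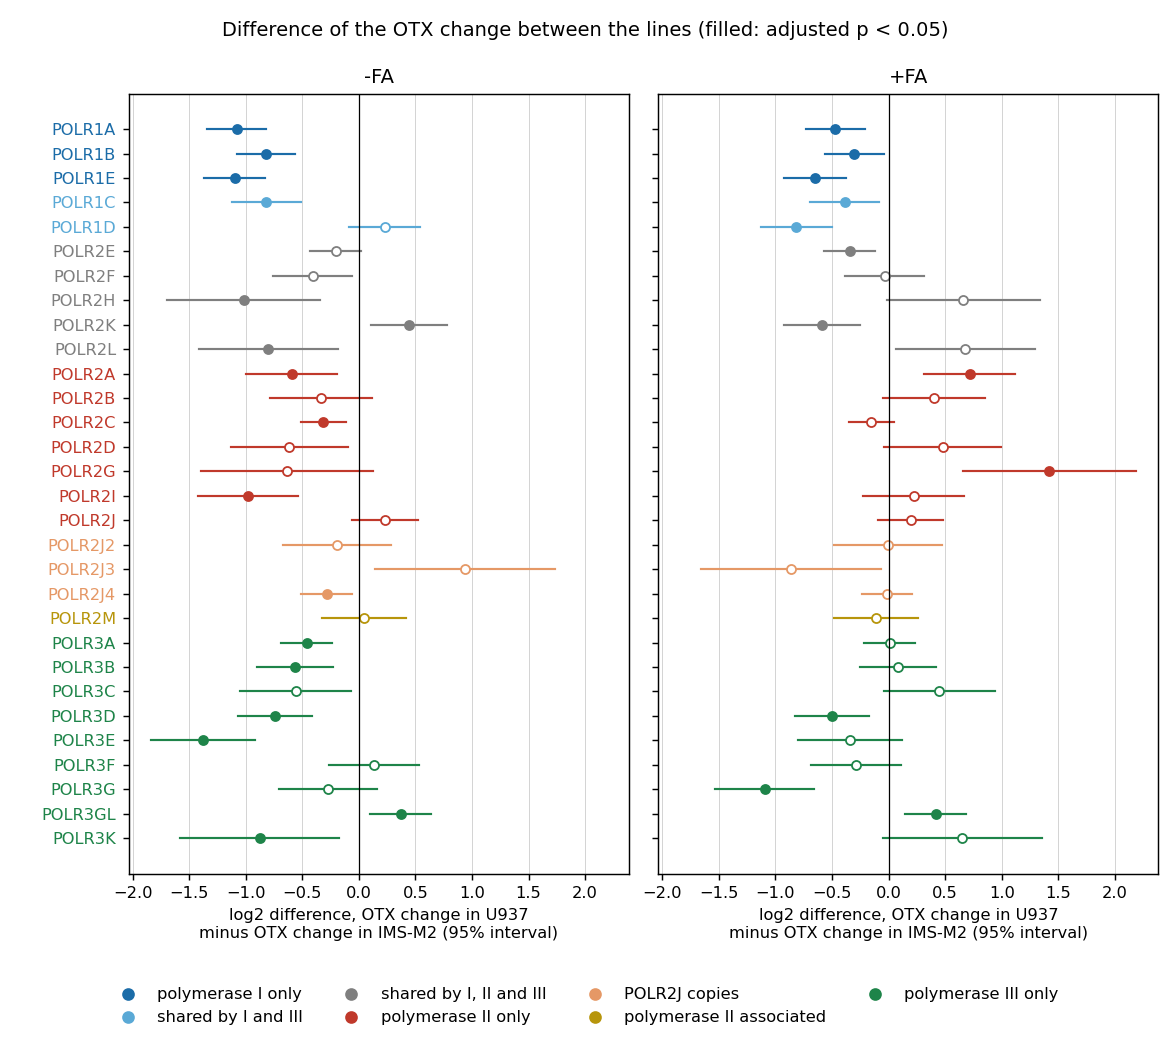
Difference of the OTX change, U937 minus IMS-M2 (log2 scale), with 95% intervals, for 30 of the 31 genes (rows, grouped and coloured by enzyme), without FA on the left and with FA on the right. Filled points passed an adjusted p below 0.05; POLR1A, POLR1B, POLR1E and POLR1C lie left of 0 in both panels, and POLR2A and POLR2K change sides between them.

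Several polymerase subunits carry older names without the POLR prefix. CD3EAP, the partner of POLR1E, fell in all 4 settings, with log2 changes of -0.97 in U937 -FA, -1.21 in U937 +FA, -0.64 in IMS-M2 -FA and -0.37 in IMS-M2 +FA. ZNRD1, a small polymerase I subunit akin to POLR2I and POLR3K, fell in all 4, with changes of -1.53, -0.87, -0.89 and -1.12 in the same order. With FA the ZNRD1 change was more negative in IMS-M2 than in U937, the opposite sign to the POLR1 genes. That difference did not pass the test between lines, where 0 of the 9 genes listed here were called higher in U937. POLRMT, the mitochondrial RNA polymerase, fell in all 4, with changes of -1.17, -0.86, -0.41 and -0.56. The list of 9 such genes and mitochondrial partners had 5 lower and 0 higher in U937 -FA, the same counts in U937 +FA, 8 lower and 0 higher in IMS-M2 -FA, and 3 lower and 2 higher in IMS-M2 +FA. Its median log2 change was -0.37, -0.75, -0.41 and 0.07 in those settings.

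Of 8 listed initiation factors of polymerase I, 2 rose and 1 fell in U937 -FA, 1 rose and 5 fell in U937 +FA, 3 rose and 3 fell in IMS-M2 -FA, and 4 rose and 2 fell in IMS-M2 +FA, with 7 tested in U937. UBTF, which binds the ribosomal DNA promoter, fell in all 4 (log2 -0.29, -0.26, -0.46 and -0.19), while TAF1B, a subunit of the selectivity factor, rose by 0.44, 0.35, 0.31 and 0.55. Of 18 polymerase III factors, 4 rose and 6 fell in U937 -FA, 3 rose and 5 fell in U937 +FA, 5 rose and 6 fell in IMS-M2 -FA, and 7 rose and 5 fell in IMS-M2 +FA. GTF3A, the 5S gene factor TFIIIA, fell in all 4 (log2 -0.68, -0.79, -0.73 and -0.62), and GTF3C6, a subunit of TFIIIC, also fell in all 4 (log2 -0.96, -1.81, -1.70 and -1.18). GTF3C1, the largest subunit of TFIIIC, rose in all 4 (log2 0.35, 0.32, 0.48 and 0.34).

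Of 24 polymerase II general factors, 6 rose and 7 fell in each U937 setting, 5 rose and 6 fell in IMS-M2 -FA, and 9 rose and 6 fell in IMS-M2 +FA. SSRP1, a subunit of the histone chaperone FACT, fell in all 4 (log2 -1.12, -0.68, -0.64 and -0.67). GTF2B, the initiation factor TFIIB, rose in all 4 (log2 0.63, 0.58, 0.38 and 0.56). Of 13 polymerase assembly and import factors tested, 1 rose and 8 fell in U937 -FA, 1 rose and 5 fell in U937 +FA, 2 rose and 5 fell in IMS-M2 -FA, and 3 rose and 7 fell in IMS-M2 +FA. RUVBL2, an ATPase of the assembly chaperone complex, fell in all 4 (log2 -1.18, -0.62, -0.42 and -0.72). These counts stand beside the same backgrounds of all genes as above.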

How the data were processed

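The authors deposited 4 tables of FPKM, 1 per line and folic acid condition. The unit was taken from the values and layout, since headers do not name it. Per the labels, RNA was extracted with a Qiagen RNeasy kit and made into stranded TruSeq mRNA libraries. Cuffdiff 2.2.1, TopHat2 2.1.1 and bcl2fastq 2.17.1.14, with build hg19, are named in the submitters' processing notes. FPKM is relative to the other RNAs of a library, and does not register how much RNA each cell held.

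Genes averaging at least 1 FPKM in any fitted group were tested on log2(FPKM + 1) with limma 3.58.1 in R 4.3.3 (group means, intensity trend, Benjamini-Hochberg over all genes tested). OTX and folic acid contrasts used the 12 libraries of a line, and contrasts between lines all 24. The fit was checked on simulated data, where far fewer genes changed than were called with OTX here. Of 100 genes changed by 0.5 log2, 35% were called in each folic acid contrast. Between lines 36% were called with FA and 42% without, and 57% to 69% in the OTX contrasts. Unchanged genes made up 1.8% to 7.3% of calls. A missing call thus does not show that a change of that size was absent. Genes of the list were named whatever their result, except 1 that enters the fits and counts and is not reported here, and from each other list up to 3 called genes per direction by smallest p. The members and lists were chosen with earlier results of these data known. Alternatives were the pseudocount, the filter, rescaling, the fitted groups, a replicate block and leaving out each library. Promoters came from RefSeq.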

Additional observations from a re-analysis of the deposited data

Results flagged for a closer look

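The values here were picked because the OTX change differed, by the test of the difference, between folic acid conditions or between lines. Each is a difference of log2 changes from limma at an adjusted p below 0.05, and no explanation was weighed.

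Between folic acid conditions, as the change without FA minus the change with FA, POLR2A differed by -0.70 in U937 and POLR1D by -0.52 in IMS-M2. Each of these calls was lost on leaving out any 1 of 10 of the 12 libraries.

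Between the lines without FA, as the change in U937 minus the change in IMS-M2, the polymerase I and shared subunits POLR1A, POLR1B, POLR1C and POLR1E differed by -1.08, -0.82, -0.82 and -1.10. The subunits POLR2H, POLR2K and POLR2L, common to all the enzymes, differed by -1.02, 0.44 and -0.80. The polymerase II genes POLR2A, POLR2C, POLR2I and POLR2J4 differed by -0.59, -0.31, -0.98 and -0.29. The polymerase III genes POLR3A, POLR3B, POLR3D and POLR3E differed by -0.46, -0.56, -0.74 and -1.37, and POLR3GL and POLR3K by 0.37 and -0.88. The calls of POLR2K, POLR2L, POLR2J4, POLR3GL and POLR3K were lost on leaving out any 1 of 6, 7, 6, 5 and 7 libraries. Those of POLR2A and POLR2H were lost without 1 library.

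Between the lines with FA, all 5 POLR1 genes differed, POLR1A by -0.47, POLR1B by -0.30, POLR1C by -0.39, POLR1D by -0.82 and POLR1E by -0.65. POLR2A differed by 0.72, POLR2E by -0.34, POLR2G by 1.42 and POLR2K by -0.59. POLR3D differed by -0.50, POLR3G by -1.10 and POLR3GL by 0.42. Of these, the calls of POLR1B, POLR1C and POLR3GL were lost in a fit of the contrasted groups alone, with adjusted p of 0.0998, 0.0796 and 0.0506. Those of POLR1B and POLR1C were also lost on leaving out any 1 of 7 and 5 libraries.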

How the results depend on the processing

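The counts of genes called in the 4 OTX comparisons and the 2 comparisons between lines stayed within 1.5 times under every alternative that could be run: a pseudocount of 0.1 FPKM, no filter on low values, rescaling to an equal median, a fit to the contrasted groups alone, the replicate block and leaving out each library. The counts for folic acid did not. In IMS-M2 the count of 1 became 7 with the replicate block, where 21.4% of all genes were called against 6.94% without it. Among those added were POLR2A, POLR2G, POLR2J3, POLR2K and POLR2L. The IMS-M2 count was 0 with no filter, and ran from 0 to 15 over the left-out libraries. In U937 the count of 1 became 0 with the pseudocount of 0.1 FPKM and 0 with no filter, was 1 other gene, POLR2K, after rescaling, and ran from 0 to 16 over the left-out libraries. No called value reversed under any alternative run. Of 786 single-gene values recomputed without a library, 681 kept their call and 105 lost it, over 21 results. Calls were kept in 98 of 99 such values with the other pseudocount, 88 of 99 with no filter, 98 of 99 after rescaling, 89 of 97 with the contrasted groups alone and 55 of 59 with the block. The U937 -FA columns could not be matched to replicate numbers, so the block was fitted only where the columns carry them. With it the counts were 22 in IMS-M2 +FA, 12 in IMS-M2 -FA and 13 in U937 +FA. The block ended the calls of POLR2F and POLR2J in U937 +FA (adjusted p = 0.0559 and 0.0957) and of the differences between lines of POLR1B and POLR1C with FA (adjusted p = 0.0739 and 0.0542). Same-numbered libraries did not deviate together in every pair (correlations from -0.11 to 0.36 in IMS-M2 and from -0.34 to 0.13 in U937 +FA), so the numbers were not taken to pair samples. In IMS-M2 most of these correlations were above 0, the highest between replicate 2 of IMS-M2 +FA OTX and of IMS-M2 -FA OTX. Whether the IMS-M2 numbers mark a pairing is thus not settled, and the main fits ignore it. Depth is unknown, and values near 1 FPKM, as of POLR3G under OTX and POLR2J4, moved most with the pseudocount.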
